A study of Caenorhabditis elegans with 4 samples.

Results

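The wild-type young adult footprint landscape of Caenorhabditis elegans is described here from 2 ribosome profiling libraries of N2, the standard laboratory strain, out of 4 libraries in all. They were chosen by their strain label. The other 2 libraries, from worms mutant for a pair of Y-box RNA-binding proteins (alleles cey-1(rrr12) and cey-4(ok858)), enter no value below. Per the labels, whole N2 worms were raised on plates from hatched larvae to young adulthood and frozen, so all tissues and the germ line were lysed together. The labels call the libraries duplicates and do not say whether they came from separate cultures, so the spread given here may be technical.

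In ribosome profiling, monosomes are purified and the short stretch of message that each ribosome shields is sequenced. The number of footprints on a gene therefore combines how much of its message is present, how densely ribosomes sit on it and how long its coding region is. Levels are given as CPM, the count scaled to a library total of 1000000 footprints, which is a share of footprints and not a level per length: a long coding region collects more of them at the same density. In whole worms, a low level from fewer cells of a type and one from less RNA per cell cannot be told apart. A well-fed adult hermaphrodite makes yolk in its intestine, lays down an adult cuticle rich in collagens from its hypodermis and builds oocytes, each of which calls for much protein synthesis.

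Library 1 held 32913332 counts and library 2 held 27867396, over 20179 genes. At least 1 count was seen for 16692 genes in library 1 and 16234 in library 2, and 12724 genes (63.1%) had at least 10 counts in each library, which is called detected below. In both libraries 2855 genes (14.1%) were at 0. A count of 0 allows up to 0.0911 CPM in library 1 and 0.108 CPM in library 2 (3 counts of the total). This limit and the interval below cover counting error only, since reads amplified without molecular identifiers are not independent molecules.

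The young adult label was checked against marker genes. All 9 adult markers, the yolk genes and 3 collagens, were detected, and together they held 8.05% of the footprints of library 1 and 7.199% of those of library 2. Among them the adult cuticle collagen col-19 had 4702 CPM in library 1 and 5011 CPM in library 2, while col-62 averaged 13.5 CPM and col-7 averaged 8.62 CPM. The 6 larval moult markers were all detected and held 0.0089% of footprints in all. They ran from mlt-10 at 3.34 CPM to nas-37, a metalloprotease of moulting, at 47.5 CPM, all above the median gene (1.79 CPM). Of these, nas-37, noah-2 (15.4 CPM) and noah-1 (13.8 CPM) exceeded the adult markers col-62 and col-7. The genes mlt-11, mlt-8 and mlt-10 lay below both. The moult markers thus lay well below col-19 and the yolk genes but not below all adult markers. Of 9 markers of zygotic transcription in the embryo only elt-7, at 1.80 CPM, was detected, and elt-7 is also an intestinal factor of later stages. The embryonic genes end-1, med-1, med-2 and sdz-1 were at 0 in both libraries, and end-3, pes-10, tbx-37 and tbx-38 had at most 3 counts in a library. Sperm and oocyte genes were both present. Of 32 sperm markers 26 were detected, and all 4 oocyte markers were, led by rme-2, the yolk receptor of oocytes, with 391 CPM in library 1 and 413 CPM in library 2.

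Footprints were concentrated on few genes. The 10 highest genes held 14.4% of the footprints of library 1 and 12.7% of those of library 2 (mean 13.5% ± 1.199, SD, n = 2). The 100 highest held 41.7% and 41.2% in libraries 1 and 2, and the 1000 highest held 79.2% in each. These sets were ranked by mean CPM and are the same in both libraries. The 10 include K08E7.6, described below, which held 1.54% of library 1 and 0.284% of library 2. This gene made up most of the gap for the 10 highest, and the shares of the larger sets hardly differed. In library 1 164 genes, and in library 2 166 genes, held 50% of all footprints, and 2477 and 2463 genes held 90%.

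**Figure D1:**
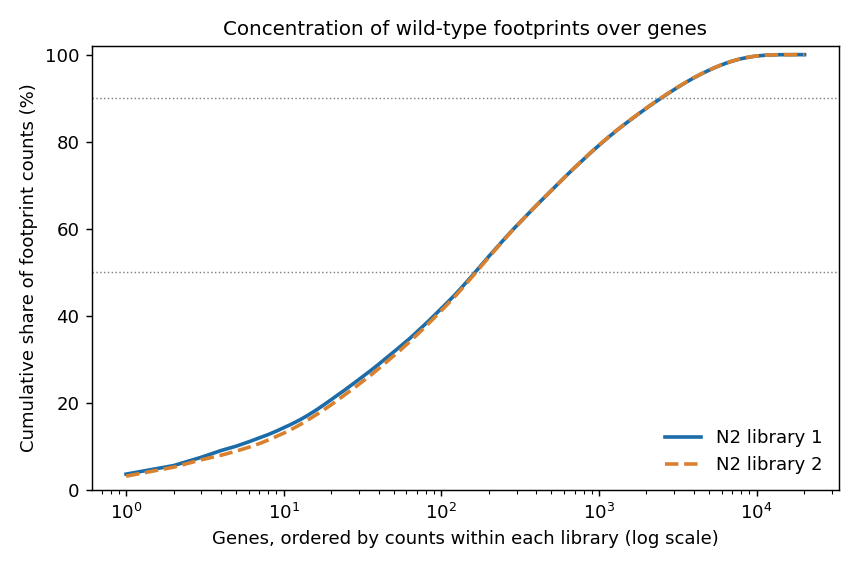
Cumulative share of footprint counts (%) against genes ordered by their count within each library (log scale), for N2 library 1 (solid) and N2 library 2 (dashed); dotted lines mark 50% and 90%. The curves lie on each other from about 100 genes on, and 164 and 166 genes hold 50% of the footprints.

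The level fell steeply with rank. The gene at rank 100, the invertebrate-type lysozyme ilys-5, averaged 1598 ± 14.4 CPM (SD, n = 2). At rank 1000, nspg-6 averaged 137 ± 1.56 CPM, at rank 5000 the glutathione S-transferase gst-39 averaged 14.5 ± 0.0221 CPM, and at rank 10000 Y39E4B.11 averaged 1.89 ± 0.222 CPM. The median gene had 1.79 CPM, and 182 genes reached 1000 CPM or more. Genes with a family name (letters, a hyphen and a number) made up 10760 of the table and held 87.6% of the footprints, whereas the 8018 genes known only by a sequence name held 11.8%.

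Yolk proteins led the list. The vitellogenin vit-6 had 37015 CPM in library 1 and 32391 CPM in library 2, the highest level in each, and so took up 3.47% of all wild-type footprints. The related vit-2 had 19083 and 17044 CPM, vit-1 had 9942 and 8840 CPM and vit-5 had 6354 and 5616 CPM in libraries 1 and 2. The lowest of the 6 were vit-3, with a mean of 1865 CPM, and vit-4, with 1359 CPM. All 6 thus exceeded 1000 CPM, and all 6 lay higher in library 1 than in library 2. Together they held 7.58% of library 1 (95% Wilson interval 7.57% to 7.59%, counting error only) and 6.70% of library 2. The library 2 share lay outside the library 1 interval for vit. It did so for the col, rpl, rps and eef families too, so this is not particular to yolk. Several vit genes are near-identical in sequence, and how reads that match several genes were counted is not given in the sources used here, so the split among them is uncertain.

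Elongation factors came next. The factor eef-1A.1, which brings aminoacyl-tRNA to the ribosome, had 19618 CPM in library 1 and 20534 CPM in library 2, and eef-2, which moves the ribosome along the message, had 10145 and 10295 CPM. The exchange factor subunit eef-1G followed at 2179 CPM on average. The other 5 members of the elongation list were iff-1 (mean 1167 CPM) and iff-2 (431 CPM), which encode the translation factor eIF5A, the exchange factor subunits eef-1B.1 (1142 CPM) and eef-1B.2 (809 CPM), and eef-1A.2 (770 CPM). The paralog eef-1A.1 exceeded eef-1A.2 26.1-fold in library 1 and 26.0-fold in library 2, although near-identical coding regions make their split and their sum uncertain.

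Of the 30 highest genes, 11 were cuticle collagens, 4 were vit genes, and 2 each were eef and rpl genes. The collagen col-140 had 8893 CPM in library 1 and 9575 CPM in library 2. The next 8 collagens by mean level were col-129 (8170 CPM), col-20 (8096 CPM), col-122 (8012 CPM), col-181 (7023 CPM), col-80 (6971 CPM), col-124 (6968 CPM), col-119 (6803 CPM) and col-81 (6547 CPM). The other 2 collagens among the 30 were col-139, at 5409 CPM, and col-19. Body wall muscle was represented by unc-54, the main myosin heavy chain, with 6878 CPM in library 1 and 7276 CPM in library 2.

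Enzymes, transporters and chaperones filled much of the rest. The S-adenosylhomocysteine hydrolase ahcy-1, of the methionine cycle, averaged 6248 CPM, and the mitochondrial ADP/ATP carrier ant-1.1 averaged 5948 CPM. The intestinal aspartyl protease asp-1 averaged 5915 CPM, the cytosolic chaperone hsp-1 5638 CPM and the fatty acid and retinol binding protein far-2 5101 CPM. These were followed by rack-1, a scaffold on the small ribosomal subunit, at 4947 CPM, and by the ribosomal proteins rps-0 at 4519 CPM, rpl-5 at 4496 CPM and rpl-3 at 4031 CPM. The ATP synthase subunit atp-1 averaged 4173 CPM and epic-2 averaged 4401 CPM. Among the highest genes, the ranges of the 2 libraries overlap in 20 of the 29 pairs of neighbours. Overlap alone does not show a changed order, since the levels of both genes of a pair can shift together between libraries. Some of the overlapping pairs kept their order in both libraries, such as far-2 above rack-1. Others swapped, such as rpl-5 and epic-2, so the order is uncertain for part of the pairs.

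**Figure D2:**
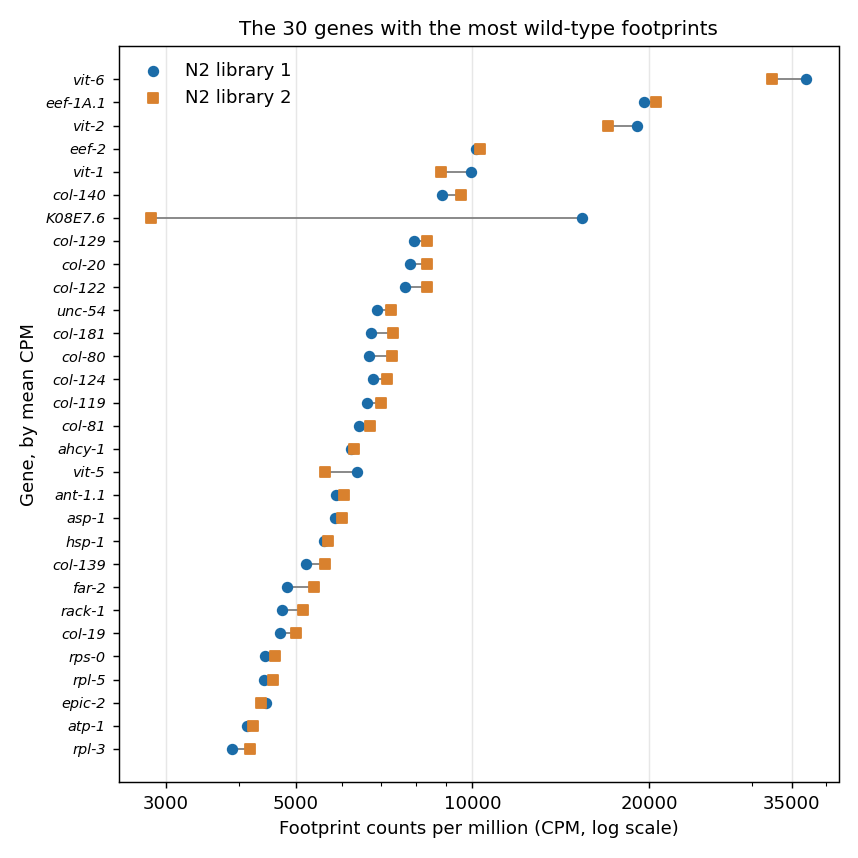
CPM (log scale) of the 30 genes with the highest mean, in N2 library 1 (circles) and N2 library 2 (squares), joined by a line for each gene. The circle and the square lie close for nearly every gene, and K08E7.6 stands out with 15400 CPM in library 1 and 2837 CPM in library 2.

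The exception was K08E7.6, a gene known only by its sequence name. It had 506865 counts, 15400 CPM, in library 1 and 79053 counts, 2837 CPM, in library 2, and so ranked 4 in library 1 and 49 in library 2. The level in library 1 was 5.43 times that in library 2. Its mean rank of 7 rests on library 1.

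Grouped by name family, the footprints fell on 2794 families, of which 694 had at least 3 members with counts. Only these 694 were ranked. Among them the 5 families with the largest share held 34.9% of all footprints and the 20 largest held 45.8%. Families with fewer such members are left out of this order, although ahcy-1 alone held 0.625%. Also left out is epic, with epic-3 at 0 in both libraries, although epic-2 held 0.440% and epic-1 held 0.326%. First was col, with 10.8% of library 1 and 11.6% of library 2 (mean 11.18% ± 0.587, SD, n = 2). It was followed by rpl, the large ribosomal subunit proteins, with 7.30% and 7.67%, by vit with 7.58% and 6.70%, by rps, the small ribosomal subunit proteins, with 5.44% and 5.65%, and by eef with 3.46% and 3.58%. The order of rpl and vit differed between the libraries, whereas col was first in both. Mean shares then dropped to 1.59% for unc, 1.53% for hsp, 1.32% for the asp proteases, 0.938% for atp, 0.767% for the proton pump subunits vha and 0.658% for far. The remaining 9 families ran from ant (0.600%), act (0.521%), rla (0.513%), sec (0.460%) and eif (0.458%) to let (0.428%), cct (0.396%), cpr (0.364%) and pdi (0.357%). The names unc and let record mutant phenotypes and not a protein kind, so those families are mixtures.

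Families reached their share in different ways. The col family was uneven: 24 of its 156 members had 1000 CPM or more and held 96.9% of its footprints, and 8 members held 50%. Another 48 members were above 0 but under 1 CPM and 7 were at 0 in both libraries, so the median member had 5.32 CPM. The ribosomal families were evenly filled instead. All 31 rps members lay above 100 CPM, from rps-28 at 449 CPM to rps-0, with a median of 1604 CPM, and 33 of 45 rpl members reached 1000 CPM, with a median of 1382 CPM. Only rpl-24.2 (49.6 CPM), rpl-37 (55.1 CPM) and rpl-42 (0.914 CPM), chosen after their values were seen, were under 100 CPM.

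The narrowest of the 20 was cct, the ring-shaped chaperonin that folds actin and tubulin and whose subunits are of closely similar size and present in equal number. Its 8 members ran from cct-3, at 432 CPM in library 1 and 433 CPM in library 2, to cct-7, at 556 and 586 CPM, a 1.32-fold range. By contrast 1 member held more than 50% of the footprints in 6 of the 20 families: ant-1.1 held 99.2% of ant, far-2 held 77.5% of far, sec-61.A, a subunit of the channel that threads proteins into the endoplasmic reticulum, held 68.3% of sec, rla-0 held 58.1% of rla, eef-1A.1 held 57.0% of eef and act-4 held 53.4% of act. Over all 694 families this was so in 341 (49.1%). Within act, the act-1 gene averaged 14.8 CPM and act-3 averaged 21.98 CPM. Since actin coding regions are near-identical, this split and the share of act are uncertain.

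**Figure D3:**
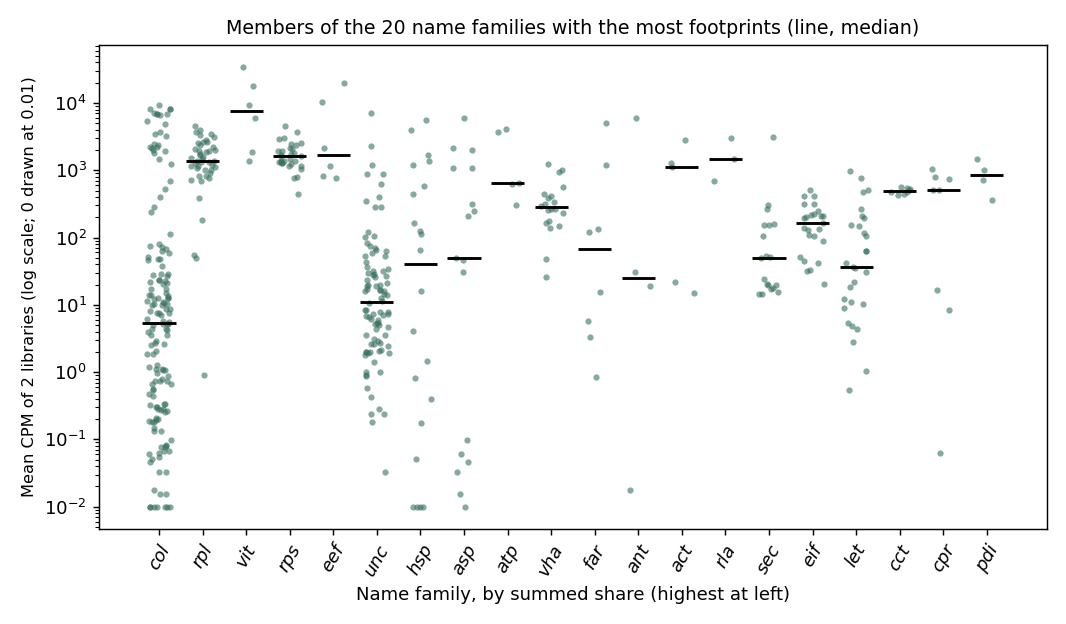
Mean CPM of the 2 N2 libraries (log scale, genes at 0 drawn at 0.01) for every member of 20 name families, with the largest at the left. These have the largest summed share among families of at least 3 members with counts. Each point is a gene and each line the family median. The col family spans from 0 to 9234 CPM, while the 8 cct members form a tight cluster between 433 and 571 CPM.

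Large families with many members could hold few footprints. The nuclear hormone receptors (nhr) had 268 members, a median of 0.681 CPM and 0.0617% of the footprints. The C-type lectin-like family clec had 240 members, of which 42 were at 0 in both libraries, and clec-63 alone held 43.7% of its footprints. The chemoreceptors of sensory neurons, 1278 genes in 19 families, were close to unseen: 694 were at 0 in both libraries, 11 were detected, and all together they held 0.00417% of the footprints. The highest of them, chosen after its value was seen, was srsx-34 with a mean of 6.66 CPM. A count of 0 sets only the upper limit given above, so absence was not shown.

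Histones need a caveat of another kind. Of 70 his genes 37 were at 0 in both libraries, and 36 of these share a symbol with another entry of the table. Among all genes, 189 entries share a symbol and 181 of them were at 0 in both libraries. Whether reads that match several copies were dropped was not tested. The highest histone was his-72, a replacement histone, with a mean of 114 CPM.

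Lists by function covered 54.8% of the footprints. Genes of protein synthesis held much of that: the 81 cytosolic ribosomal proteins held 13.8% of library 1 and 14.5% of library 2, and all genes of the ribosome, elongation, initiation and tRNA charging lists held 18.97% and 19.75%. All 81 ribosomal proteins were detected, led by rack-1, rps-0, rpl-5, rpl-3, rps-3 (mean 3750 CPM) and rpl-4 (3676 CPM). The initiation factors held 0.819%, with pab-1, the poly(A) binding protein, at 1383 CPM, the helicase inf-1 at 998 CPM and eif-3.C at 517 CPM. The 20 tRNA synthetases held 0.698% and were led by kars-1 (776 CPM), aars-2 (572 CPM) and ears-1 (519 CPM), which charge tRNAs for lysine, alanine and glutamate. Cuticle collagens, ribosomal proteins and yolk together held 32.2% of library 1 and 32.8% of library 2.

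Muscle structure took up 2.33% of the footprints. In the thick filament unc-54 was followed by unc-15, the paramyosin, with a mean of 2331 CPM, and by unc-22, the giant kinase twitchin, with 872 CPM. In the thin filament act-4 had 2783 CPM, lev-11, the tropomyosin, had 1535 CPM and act-2 had 1270 CPM. The basement membrane genes unc-52 (perlecan, 1192 CPM), let-2 (967 CPM) and emb-9 (632 CPM), the last 2 encoding type IV collagen chains, led a list that held 0.491%. Among the tubulins and the intestinal actin act-5, tbb-2 had 1824 CPM, tba-2 1307 CPM and act-5 1118 CPM.

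Folding, energy and degradation followed. Chaperones held 2.66%, with hsp-1, hsp-90 (3900 CPM) and the calcium-binding chaperone crt-1 (2029 CPM) at the top. The nuclear-encoded genes of oxidative phosphorylation held 2.21% and were led by the ATP synthase subunits atp-1, atp-2 (3646 CPM) and atp-3 (638 CPM). The aspartyl and cathepsin proteases held 2.00%, with asp-1, cpl-1 (2867 CPM) and asp-3 (2163 CPM) highest. Glycolysis held less, 0.665%, with enolase (enol-1) at 1452 CPM, aldolase (aldo-2) at 1369 CPM and pyruvate kinase (pyk-1) at 775 CPM. The proteasome held 0.860%, and rpn-1 (571 CPM), rpn-2 (550 CPM) and rpn-7 (367 CPM), all of its regulatory particle, were its highest members. The mitochondrial ribosome held 0.285%, with mrpl-44 (345 CPM), mrps-22 (115 CPM) and mrps-27 (94.5 CPM) highest, against 14.2% for the cytosolic ribosome.

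One-carbon and lipid synthesis was also well read. The list of the methionine cycle and phosphatidylcholine synthesis held 1.13%, in which ahcy-1 was followed by pmt-2, a methyltransferase of phosphatidylcholine synthesis, at 1169 CPM and mel-32, a serine hydroxymethyltransferase, at 1085 CPM. Fatty acid synthesis and desaturation held 0.688%, led by fatty acid synthase (fasn-1, 1316 CPM), the desaturase fat-2 (839 CPM) and acetyl-CoA carboxylase (pod-2, 773 CPM). Immune effector families held 1.00%, with ilys-5, clec-63 (1421 CPM) and irg-7 (975 CPM) highest.

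Reproductive genes outside yolk held modest shares. The germline list held 0.927% and was led by cgh-1, a helicase of germ granules, at 1760 CPM, its partner car-1 at 1468 CPM and iff-1. Oocyte and eggshell genes held 0.835%, with the eggshell proteins perm-4 (1386 CPM), cpg-2 (1062 CPM) and cpg-1 (1052 CPM) highest. The major sperm proteins, which drive sperm crawling, held 0.110% over 30 genes, led by msp-50 (119 CPM), msp-64 (111 CPM) and msp-76 (93.5 CPM). Since these genes are near-identical, the split among them and their summed share are uncertain. Other sperm genes held 0.186%, with ssq-2 (346 CPM), ssq-1 (220 CPM) and ssq-4 (137 CPM) highest. The histones held 0.0606%, with his-60 (55.1 CPM) and his-59 (53.2 CPM) after his-72.

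The Y-box genes, which encode RNA-binding proteins, held 0.201% of library 1 and 0.213% of library 2. In wild type cey-2 had 1112 CPM in library 1 and 1185 CPM in library 2, cey-3 had 569 and 608 CPM, cey-4 had 263 and 266 CPM and cey-1 had 69.9 and 73.5 CPM. The neuronal list held 0.111% over 159 genes, with the neuropeptide-like genes nlp-40 (103.6 CPM), nlp-24 (103 CPM) and nlp-27 (97.2 CPM) highest, of which nlp-40 is known as an intestinal product. The synaptic markers snb-1 (37.4 CPM), ric-4 (8.45 CPM), rab-3 (7.17 CPM) and unc-13 (4.60 CPM) were all detected.

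**Figure D4:**
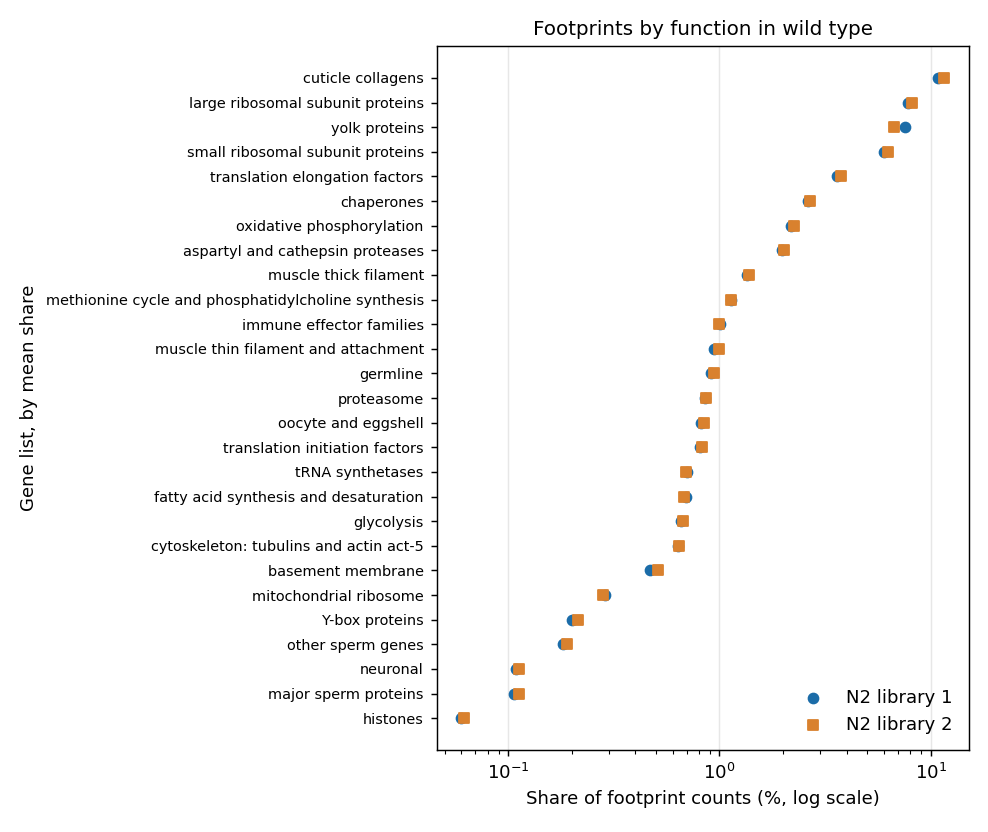
Share of footprint counts (%, log scale) of 27 gene lists in N2 library 1 (circles) and N2 library 2 (squares), with the largest mean at the top. The shares run from 11.198% for cuticle collagens to 0.0606% for histones, and the widest gap among the largest lists is that of the yolk proteins.

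The spread between the libraries was small for most genes. Among 8778 genes with a mean of at least 100 counts, the log2 ratio of CPM, library 1 over library 2, had an SD of 0.148. Its robust SD, from the median absolute deviation, was 0.108, against a median counting error of 0.0867. Of these genes 17.2% had a ratio beyond 2 counting errors. Across these genes log2 CPM of the libraries correlated with Pearson's r of 0.998 and Spearman's rho of 0.996, a description only, since genes are not independent replicates. At least 1.2-fold higher in library 1 were 278 genes (3.17% of those compared) and at least 1.2-fold lower were 198 (2.26%). The spread fell with depth: the SD was 0.170 for genes with 100 to 1000 counts and 0.0792 for those with 1000 to 10000. Above 10000 counts it was 0.139 over 479 genes, which include K08E7.6, and the robust SD there was 0.0684. The median counting error in that class was 0.0136, which treats reads as independent molecules and so is a lower limit.

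Members of some groups lay on the same side between the libraries. All 6 vit genes were higher in library 1, with a median log2 ratio of 0.17. Of 88 col genes 69 were lower in library 1, as were 37 of 44 rpl and 28 of 31 rps genes. This compares with 4391 of all 8778 genes (50.02%) and 1647 of the 3030 with a mean of at least 1000 counts (54.4%). The lean was not particular to these families: 6 of 6 eef, 5 of 5 atp and 23 of 29 chaperone genes were lower too. Other groups leaned the other way, with 14 of 19 sec genes and 14 of 20 tRNA synthetases higher in library 1. The median log2 ratios were -0.09 for col, -0.06 for rpl and -0.06 for rps. Of the col genes 4 were at least 1.2-fold lower in library 1, and no other col, rpl, rps or vit gene passed 1.2-fold. Over all 8778 genes 2.26% were at least 1.2-fold lower and 3.17% higher. Among genes with a mean of at least 1000 counts these shares were 0.066% and 0.33%. Most rpl, rps and vit genes have such depth, so the lack of passing genes is not particular to them. Of the 100 highest genes 88 were lower in library 1, but these are partly the same genes, since the 100 include 22 col, 19 rpl and 16 rps genes. Shares sum to a fixed total, so the values of different genes are not independent. With K08E7.6 left out of the totals, 65 of 88 col, 34 of 44 rpl and 23 of 31 rps genes were lower in library 1. This compares with 3768 of 8777 genes. The vit share was then 7.70% of library 1 and 6.71% of library 2. Why these groups differed between the libraries was not tested.

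A few genes differed much more. At least 2-fold higher in library 1 were 8 genes (0.0911% of the 8778), by 3.02-fold to 7.04-fold, and 0 were 2-fold lower. Besides K08E7.6 they were, chosen after their values were seen, M163.7 (13.004 CPM in library 1 and 1.83 CPM in library 2), ing-3 (23.4 and 4.63 CPM), W07G1.1 (15.2 and 3.34 CPM), ZK112.4 (5.89 and 1.94 CPM) and 3 entries with no symbol. The ratios of the other 7 lay on both sides of that of K08E7.6, and their mean levels were low, from 3.92 to 14.03 CPM. Whether these genes share sequence with it was not tested.

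Among the 3030 genes with a mean of at least 1000 counts, 10 (0.33%) were at least 1.2-fold higher in library 1 and 2 (0.066%) at least 1.2-fold lower. The muscle gene unc-89, which encodes the giant protein obscurin, had 423 CPM in library 1 and 277 CPM in library 2, a 1.53-fold difference. The pharyngeal myosin myo-2 had 377 and 309 CPM, 1.22-fold. The other pharyngeal myosin, myo-1, had 384 CPM in library 1 and 322 CPM in library 2, while the body wall myosins unc-54 and myo-3 lay the other way, myo-3 with 649 and 702 CPM. The remaining 7 higher genes were F59E12.1 (1.75-fold), Y39B6A.1 (1.41-fold), cytb-5.1 (1.27-fold), F38B6.4 (1.24-fold), T19D12.1 (1.23-fold), E03H12.5 (1.22-fold) and T23B3.5 (1.203-fold). In the other direction the extremes were milder. The sperm gene msp-36 had 65.4 CPM in library 1 and 82.2 CPM in library 2, and F49C12.11 had 41.5 and 50.1 CPM. The next 8, Y37D8A.19, pqn-94, col-180, puf-12, ndua-12, F53B6.4, nduv-3 and snr-2, had log2 ratios from -0.25 to -0.23 and did not pass 1.2-fold.

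**Figure D5:**
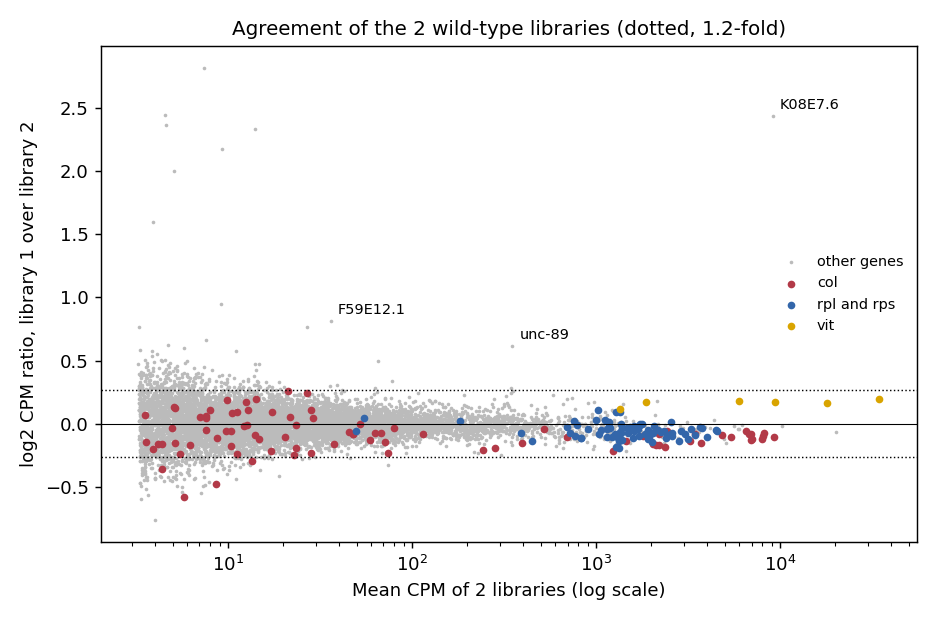
Log2 ratio of CPM, N2 library 1 over N2 library 2, against mean CPM (log scale) for 8778 genes with a mean of at least 100 counts; collagens are red, ribosomal proteins blue and yolk genes yellow, and dotted lines mark 1.2-fold. The 6 yolk genes lie above 0, most abundant collagens and ribosomal proteins lie just below it, and K08E7.6 lies far above at 2.44.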

How the data were processed

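Whole-number counts per gene, deposited by the authors as a raw count table, were used for the 2 N2 libraries. Bowtie was the aligner per the submitters' processing notes. Its version, the genome build, the annotation and the counting rule were not given in the sources used here. Symbols came from the reference name table and matched 18778 of 20179 genes, and 3 entries that repeat pat-10, eps-8 and pmt-1 under a second identifier were left out.

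CPM was the count over the library total, and means and SDs are over 2 libraries. Ratios used a pseudocount of 0.5 and genes with a mean of at least 100 counts. No test between groups was made and no p-value is given. The ratio calculation was tested on simulated data. Gene lists were chosen with earlier results of these data known. The text names the 30 highest genes and the 20 largest families of at least 3 members with counts. It also names the 3 highest members of each list with every member of lists of at most 8, the 10 largest ratios each way, and 4 marked ranks. Marker genes come from a list of their own. Of the other genes named, rps-28, cct-3, cct-7, sec-61.A, rla-0, act-1 and act-3 were chosen after their values were seen. Python 3.11.15 with pandas 2.3.3 and, for scaling alternatives, edgeR 4.0.16 in R 4.3.3 were used.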

Additional observations from a re-analysis of the deposited data

How the results depend on the processing

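Including the repeated entries or dropping genes under 10 counts moved no share of the 10 or 100 highest genes or of the 5 largest families by more than the SD between libraries. The share of the 10 highest genes was 12.7% to 14.4% with 1 library left out, that of the 100 highest 41.2% to 41.7%, and the number of genes holding 50% of the counts was 164 to 166. With the vit genes left out of the totals, the 10 highest genes held 10.1%, the 100 highest 37.96%, col 12.04%, rpl 8.06%, rps 5.97% and eef 3.79%. Without K08E7.6 the 100 highest held 41.1%. Ranked by median member, vit, eef, rps, rla and rpl came first and col was at rank 424. The SD of the log2 ratio, 0.148 with a mean of at least 100 counts, was 0.204 with at least 30 and 0.0916 with at least 1000. The percent of genes past the fold, 5.42%, became 12.4% with at least 30 counts, 0.396% with at least 1000, 4.78% with a pseudocount of 8 and 0.205% with a fold of 1.5. TMM and median-ratio factors gave 5.48% and 5.47%. Of 257 alternatives for single genes, lists, family ratios and ranks 40 moved past their limit, 32 of them with vit left out. The limit was the SD between libraries for levels and shares, and a fixed one for family ratios and ranks. Leaving out 1 of 2 libraries cannot shift a level or share past that SD, so those alternatives could not move. Ranking each library alone, added after seeing the data, put K08E7.6 at rank 4 in library 1 and 49 in library 2. Spread cannot be computed without a library. Ranking by footprints per codon was not run, since no coding lengths were used here. With 2 libraries, no SD is precise.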
